A study of Mus musculus with 4 samples.

Results

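Collagen chain genes were described in a profile of histone H3 trimethylated at lysine 4 (H3K4me3) in mouse hippocampus. They were taken as the protein-coding genes of GENCODE mouse release M21 named Col, a number, a, and a number, which gave 44 of 21853 protein-coding genes. By textbook assembly type 11 encode fibrillar chains, 8 basement membrane chains and 25 other chains. H3K4me3 marks nucleosomes at the start sites of active and poised genes and was mapped by chromatin immunoprecipitation and sequencing. All tissue came from hippocampus, labelled as layer of hippocampus with no particular layer named, of male B6CASTF1/J mice of 2 months. This strain name denotes a first-generation hybrid between a laboratory strain and a wild-derived one. There were 4 libraries, 2 technical replicates each of pool C (biological replicate 2) and pool D (biological replicate 1), and each pool joined 7 tissue samples. The labels give no treatment and no second tissue, so the comparisons are among collagen classes, between collagen genes and all genes, and between the pools.

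Collagens are secreted or membrane-bound proteins whose chains wind into triple helices of glycine-rich repeats. Fibrillar collagens form the cables of bone, skin and vessel walls, type IV chains form the sheet of every basement membrane, and the others decorate fibrils, build fine filaments or span cell membranes. Brain parenchyma holds little fibrillar collagen. In the brain, collagen is known mainly from the meninges and from the walls and basement membranes of blood vessels, and a few chains are made by neurons.

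The deposited data are peak lists on mouse build mm10 (GRCm38), 1 per pool, 1 replicated list over both pools and 1 called on both pools together. The replicated list held 27063 peaks, the pool C list 34193 and the pool D list 24690. Sequencing depth is unknown from these files. A gene was called marked if a peak lay within 1 kb of any start site of its coding transcripts. Peaks within 1 kb of each other were joined into a domain, and each gene was given the breadth of its broadest domain. The presence of neurons was checked on 10 marker genes of hippocampal neurons, which were all marked, with a median domain of 7879 bp in the replicated list. Markers of other brain regions were not counted, so the region on the label was not tested. Both pools are of 1 kind and each has 1 list, so differences between classes, genes and pools are described without a test, and values over pools are mean ± SD with n = 2.

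Collagen chain genes carried the mark at a share near that of all protein-coding genes, above it in some lists and below it in pool D. Their domains were narrow and ranked low in signal. In the replicated list 31 of 44 collagen genes (70.5%) were marked, where 64.8% of all protein-coding genes were. Their median domain breadth was 1111 bp, where that of all 14169 marked genes was 2234 bp with a lower quartile of 1632 bp. Of the 31 marked collagen genes 6 exceeded the median of all marked genes, 23 lay below its lower quartile, 4 were narrower than 600 bp, as were 2.63% of all marked genes, and none was over 5 kb, a breadth that 6.94% of all marked genes passed. In the pool C list 32 collagen genes (72.7%) were marked with a median of 1447.5 bp, and in the pool D list 26 (59.1%) with a median of 1014 bp. All genes were marked at 66.3% in pool C and 63.7% in pool D, with medians of 2403 and 2035 bp. In the list called on both pools together 32 collagen genes were marked (72.7%, and 65.6% of all genes), with a median of 1096 bp, where that of all marked genes was 2247 bp. In tissue made of many cell types, a peak present in few cells and a weaker mark in many cells cannot be told apart.

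**Figure D1:**
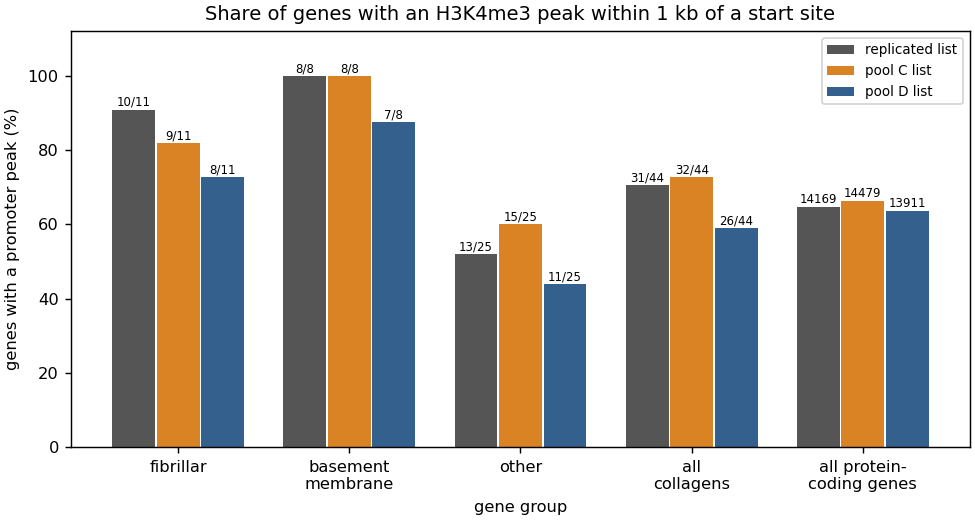
Share of genes with a promoter peak (%, vertical axis) for 3 collagen classes, all collagens and all protein-coding genes, with a bar for each of the replicated, pool C and pool D lists and the number of marked genes above it. Basement membrane genes reach 8 of 8 in the replicated and pool C lists, and other collagens stay between 11 and 15 of 25.

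The classes differed in how many of their genes were marked. In the replicated list all 8 basement membrane genes, 10 of 11 fibrillar genes (90.9%) and 13 of 25 other genes (52.0%) were marked, beside 64.8% of all genes. The 8 basement membrane genes had 6 distinct domains. In pool C the counts were 8, 9 and 15, beside 66.3% of all genes, and in pool D 7, 8 and 11, beside 63.7%. With only replicated peaks of a −log10 q of 5 or more they were 7, 7 and 12, beside 63.8% of all genes. The median breadths in the replicated list were 988 bp for basement membrane, 1398.5 bp for fibrillar and 1111 bp for other marked genes. In pool C they were 1766.5, 1629 and 1185 bp, and in pool D 963, 1372 and 977 bp. The basement membrane median in pool C rests on the joining of peaks and on a domain that Col4a5 and Col4a6 share. It was 1132 bp with peaks left unjoined and 1205 bp with each domain counted once, both below the fibrillar median of 1629 bp.

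**Figure D2:**
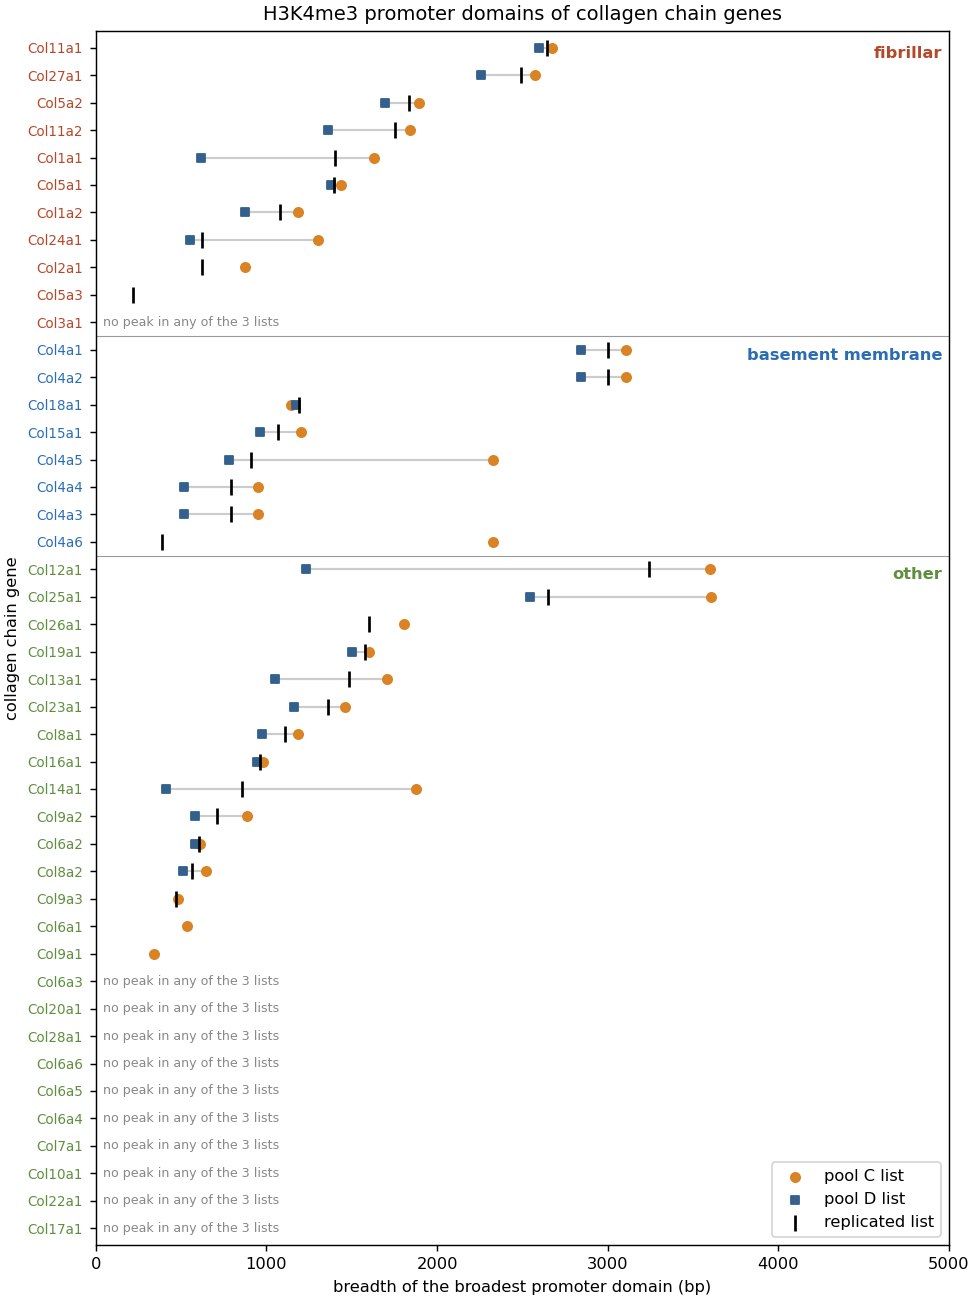
Breadth of the broadest promoter domain (bp, horizontal axis) of each of the 44 collagen chain genes, grouped by class and sorted by the replicated list; circles are pool C, squares pool D, and black ticks the replicated list. Circles lie to the right of squares at all genes with both but Col18a1, and 10 other collagens and Col3a1 have no peak in any of these lists.

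Among fibrillar genes the broadest domain was at Col11a1, whose chain nucleates thin fibrils of cartilage. It measured 2643 bp in the replicated list (chromosome 3, 114029943 to 114032585), 2673 bp in pool C and 2596 bp in pool D (2634.5 ± 54.4 bp). Col27a1, a minor fibrillar chain of cartilage, had 2492 bp in the replicated list, 2574 bp in pool C and 2259 bp in pool D (2416.5 ± 222.7 bp). In the replicated list these 2 genes alone of the fibrillar class exceeded the median of all marked genes. Col27a1 did so only with its 2 peaks joined, since its broadest peak was 1561 bp. Col5a2, which with Col5a1 makes the type V collagen that sets fibril diameter, measured 1892 bp in pool C and 1695 bp in pool D (1793.5 ± 139.3 bp). Its partner Col5a1 measured 1435 bp in pool C and 1381 bp in pool D (1408 ± 38.2 bp), so both chain genes were marked to a like extent in both pools. Col11a2, the partner of Col11a1, measured 1843 bp in pool C and 1363 bp in pool D (1603 ± 339.4 bp).

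Both genes of type I collagen, the main fibril collagen of bone, skin and meninges, were marked, and the domain of Col1a1 differed between the pools. Col1a1 measured 1402 bp in the replicated list (chromosome 11, 94936579 to 94937980), 1629 bp in pool C and 618 bp in pool D (1123.5 ± 714.9 bp). Its pool C domain was 2.636 times as broad as its pool D domain. In all of these lists the domain began inside the gene, 198 bp after the annotated start in pool C, 375 bp in pool D and 355 bp in the replicated list. Col1a2 measured 1186 bp in pool C and 873 bp in pool D (1029.5 ± 221.3 bp). Its domain also began inside the gene, after the first coding start at 4504814 on chromosome 6, and held the second of its 2 coding starts, at 4505493.

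The remaining fibrillar genes had weak or no peaks. Col24a1 measured 1303 bp in pool C and 551 bp in pool D (927 ± 531.7 bp). Col2a1, the cartilage collagen gene, had 877 bp in pool C and no promoter peak in pool D. Col5a3 had a replicated peak of 216 bp with a −log10 q of 1.42, and no promoter peak in either single pool. Col3a1, whose chain forms type III collagen of vessel walls and distensible tissues, had no promoter peak in any list. Its nearest peak lay 2182 bp from a coding start in pool C and 2203 bp in the replicated list, inside the gene, while in pool D the nearest was 161856 bp away at the neighbouring Col5a2. Among the chains of known heterotrimers, both genes of types I and VIII and all 3 of type XI, counted with Col2a1, were marked in the replicated list. Of type V, Col5a1 and Col5a2 were marked in both pools, and Col5a3 only in the lists over both pools. Type IX had 2 of 3 and type VI 1 of 3 in the replicated list, where 64.8% of all genes were marked. Col2a1, Col5a3 and Col8a2 lost their calls at a −log10 q of 5 or more. In pool D type XI had 2 of 3 and type IX 1 of 3.

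The promoter sequences of a marked and an unmarked fibrillar gene differed in base content. The 250 bases before the first coding start are shown from GRCm38 on the coding strand, with every match to the GC box GGGCGG, the box CCAAT or the box TATAAA, in either orientation, in capitals. Col11a1 is shown as the broadest fibrillar domain, Col1a1 because its domain starts past these bases, and Col3a1 as the fibrillar gene without a peak. Col1a1 was added after its values were seen.
Col11a1 (chr3:114030290-114030539, plus strand): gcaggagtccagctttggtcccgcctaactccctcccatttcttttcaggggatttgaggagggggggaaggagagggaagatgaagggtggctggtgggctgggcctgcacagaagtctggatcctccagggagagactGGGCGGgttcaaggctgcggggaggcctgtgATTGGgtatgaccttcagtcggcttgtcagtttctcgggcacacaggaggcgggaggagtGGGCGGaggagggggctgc
Col1a1 (chr11:94935974-94936223, plus strand): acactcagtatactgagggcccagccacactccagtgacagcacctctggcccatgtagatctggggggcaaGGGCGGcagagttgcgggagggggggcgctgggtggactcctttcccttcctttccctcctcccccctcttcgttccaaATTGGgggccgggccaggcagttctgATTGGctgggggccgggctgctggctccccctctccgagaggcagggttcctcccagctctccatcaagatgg
Col3a1 (chr1:45311288-45311537, plus strand): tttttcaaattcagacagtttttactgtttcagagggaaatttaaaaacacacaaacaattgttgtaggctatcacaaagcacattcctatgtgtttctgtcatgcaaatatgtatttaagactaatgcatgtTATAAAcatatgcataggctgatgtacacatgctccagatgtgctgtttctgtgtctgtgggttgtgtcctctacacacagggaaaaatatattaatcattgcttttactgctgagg

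These windows held 62.4% GC and 7 CpG dinucleotides at Col11a1, 64.8% and 7 at Col1a1, and 35.2% and 0 at Col3a1. GGGCGG occurred 2 times at Col11a1, 1 time at Col1a1 and 0 times at Col3a1. CCAAT occurred 1 time at Col11a1 and 2 times at Col1a1. TATAAA occurred 1 time at Col3a1 and at neither of the other 2 genes. Over the windows of 250 bases of all protein-coding genes, 39.9% held GGGCGG, 36.1% CCAAT and 11.5% TATAAA. Over the 44 collagen genes the shares were 52.3%, 38.6% and 11.4%. A match says only that these letters are present. Within 500 bp of the first coding start GC was 55.9% at Col11a1, 55.3% at Col1a1 and 39.8% at Col3a1. At Col5a2, which was marked, it was 42.9%, so the genes shown do not stand for the whole fibrillar class.

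All 8 basement membrane genes were marked in the replicated list, and the broadest domain was shared by Col4a1 and Col4a2. These chains form the type IV network found in the walls of all brain vessels. Their genes lie head to head on chromosome 8, and their first coding starts, at 11312826 on the minus strand and 11312805 on the plus strand, overlap in the annotation. A single domain covered both (11311224 to 11314227) and measured 3004 bp in the replicated list, 3110 bp in pool C and 2846 bp in pool D (2978 ± 186.7 bp). The 2 genes therefore give 1 measurement, not 2. Its strongest peak ranked at the 93.1 percentile of signal value among pool C peaks and at 72.8 among pool D peaks, above those of all other collagen genes in both lists. In the replicated list it ranked at 62.0, below Col19a1 (63.8) and Col5a1 (62.8).

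The other 2 type IV pairs had smaller domains. Col4a3 and Col4a4, which encode chains of the filtering membrane of the kidney, share a promoter on chromosome 1 and a domain of 793 bp in the replicated list (82586492 to 82587284). It measured 953 bp in pool C and 519 bp in pool D (736 ± 306.9 bp), and pool C was thus 1.836 times as broad. Their coding starts lie 126 bases apart, and the domain runs over both, so the bases between them are shown from GRCm38 on the strand of Col4a3.
Col4a4 to Col4a3 (chr1:82586850-82586975, plus strand): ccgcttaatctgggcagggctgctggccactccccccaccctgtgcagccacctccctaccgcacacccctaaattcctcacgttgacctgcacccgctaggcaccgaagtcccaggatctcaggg
This stretch held 64.3% GC, 5 CpG dinucleotides and 0 matches to any of the 3 motifs. In windows of 126 bases before the first coding start of all protein-coding genes, 34.1% held GGGCGG, 24.3% CCAAT and 6.4% TATAAA.

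Col4a5 and Col4a6 lie head to head on the X chromosome, and their breadths depended on the joining of peaks. In pool C a domain of 2328 bp reached both genes, joined from 2 peaks, 1 of 418 bp at Col4a6 and 1 of 1120 bp at Col4a5. In pool D a domain of 778 bp reached Col4a5 alone. This same peak was also the nearest to Col4a6, 1061 bp from its start and outside the window of 1 kb. The replicated list had separate domains of 909 bp at Col4a5 and 389 bp at Col4a6. Over the pools the joined domain of Col4a5 averaged 1553 ± 1096 bp, a ratio of 2.992 between pool C and pool D. With peaks left unjoined Col4a5 measured 1120 bp in pool C and 778 bp in pool D, a ratio of 1.44.

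Both multiplexin genes, which encode basement membrane collagens that carry glycosaminoglycan chains, were marked in both pools. Col15a1 measured 1205 bp in pool C and 963 bp in pool D (1084 ± 171.1 bp). Col18a1, whose chain is the source of the fragment endostatin, measured 1144 bp in pool C and 1174 bp in pool D (1159 ± 21.2 bp). It was the only collagen gene marked in both pools whose domain was not broader in pool C. Of its 5 coding start sites only the most upstream, at 77166548 on chromosome 10, lay in a domain (77165498 to 77166688).

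Among the fibril-associated chains (FACITs), which bind to the surface of fibrils, 6 of 9 were marked in the replicated list. Col12a1 had the broadest collagen domain in the replicated list, at 3241 bp (chromosome 9, 79716532 to 79719772). It measured 3603 bp in pool C and 1235 bp in pool D (2419 ± 1674.4 bp), a ratio of 2.917 between pool C and pool D. This ratio depends on the joining of peaks. A further pool D peak of 357 bp (79716598 to 79716954) lay just over 1 kb from the pool D domain and was not joined to it. The pool C domain, which began at 79716234, covered that stretch. With peaks left unjoined Col12a1 measured 2049 bp in pool C and 841 bp in pool D, a ratio of 2.436. The replicated domain joined 3 peaks, of which the broadest was 1328 bp, so its rank rests on the joining of peaks within 1 kb. Col12a1 did not rank first in either pool: Col25a1 measured 3604 bp in pool C, also by the joining of 2 peaks, and Col4a1 and Col4a2 2846 bp in pool D. With peaks left unjoined Col4a1 and Col4a2 were the broadest in pool C, at 3110 bp. Col14a1, a close relative of Col12a1, measured 1877 bp in pool C and 412 bp in pool D (1144.5 ± 1035.9 bp), where the pool C domain joined 2 peaks of which the broader was 901 bp. Its replicated domain lay upstream, ending 412 bp before the first coding start.

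Col19a1, a FACIT chain that hippocampal interneurons make and that mice need for inhibitory synapses, had 1577 bp in the replicated list. Its domain differed little between the pools, with 1601 bp in pool C and 1499 bp in pool D (1550 ± 72.1 bp). Of the collagen genes with 1 gene per domain it had the highest ranked signal in pool D, at the 61.7 percentile. Col16a1 measured 980 bp in pool C and 944 bp in pool D (962 ± 25.5 bp). The type IX genes, whose chains coat cartilage fibrils, were marked weakly. Col9a2 measured 885 bp in pool C and 580 bp in pool D (732.5 ± 215.7 bp), while Col9a3 (482 bp) and Col9a1 (341 bp) had promoter peaks in pool C and none in pool D. Col20a1 and Col22a1 had no promoter peak in any list.

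Of the 4 transmembrane collagen genes 3 were marked in both pools. Col25a1, a neuronal collagen whose shed part is found in amyloid plaques, had 2649 bp in the replicated list (chromosome 3, 130180175 to 130182823), 3604 bp in pool C and 2545 bp in pool D (3074.5 ± 748.8 bp). With peaks left unjoined it measured 2766 bp in pool C and 2137 bp in pool D. Col13a1, known from the neuromuscular junction, measured 1707 bp in pool C and 1051 bp in pool D (1379 ± 463.9 bp). Col23a1 measured 1460 bp in pool C and 1164 bp in pool D (1312 ± 209.3 bp). Col17a1, a hemidesmosome component of skin, had no promoter peak, and the nearest peak was 38392 bp away in pool C.

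The beaded filament genes of type VI were the least marked subclass with more than 3 genes, at 1 of 6 in the replicated list. Col6a2 measured 610 bp in pool C and 579 bp in pool D (594.5 ± 21.9 bp). Col6a1 had 532 bp in pool C and no promoter peak in pool D or the replicated list. Col6a3, which completes the common type VI heterotrimer, and Col6a4, Col6a5 and Col6a6 had none in any list, and their nearest replicated peaks were 51923 bp or more away. Thus 1 of the 3 chain genes of the common type VI molecule was marked in the replicated list, 2 in pool C and 1 in pool D.

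Both short-chain type VIII genes were marked, and the cartilage gene Col10a1 was not. Col8a1 measured 1185 bp in pool C and 977 bp in pool D (1081 ± 147.1 bp), and Col8a2 648 bp in pool C and 513 bp in pool D (580.5 ± 95.5 bp). Col26a1 had 1599 bp in the replicated list and 1807 bp in pool C. Its only nearby pool D peak lay 1201 bp from a coding start, just outside the window. Col7a1, whose chain anchors skin to its basement membrane, and Col28a1 were unmarked in all lists. The nearest peak to Col28a1 lay 1365 bp from a coding start in pool C.

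**Figure D3:**
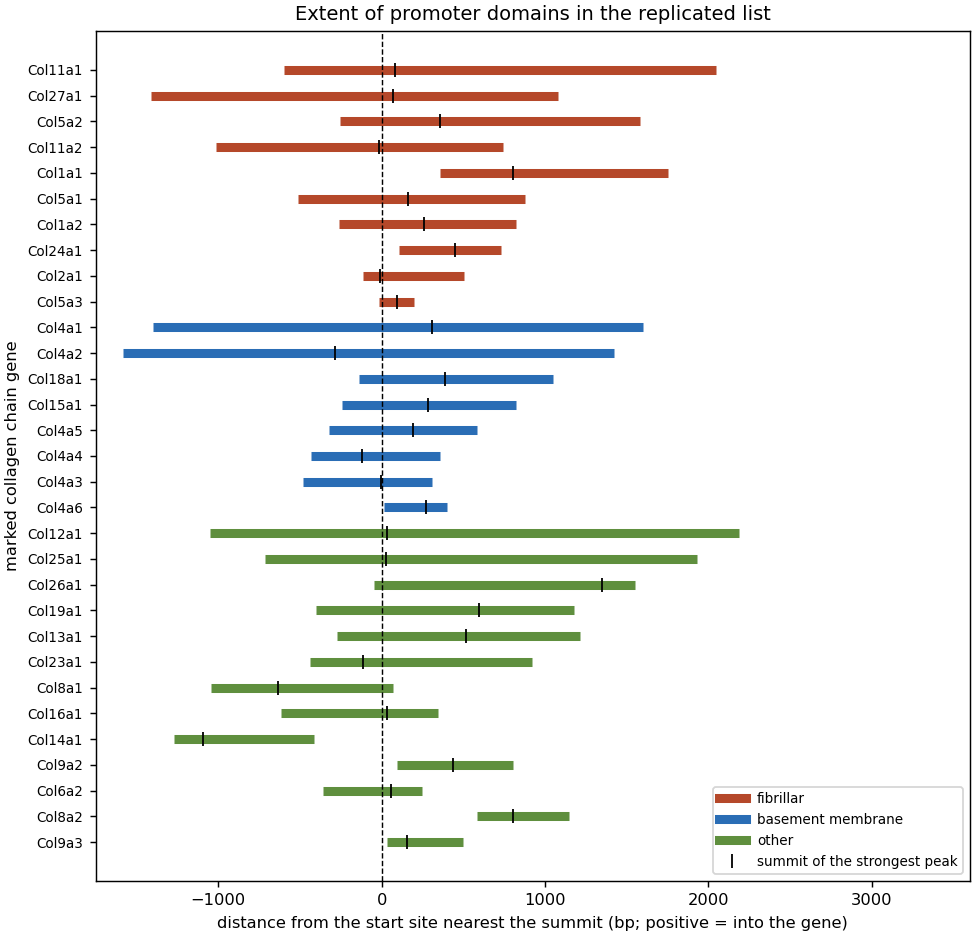
Extent of the promoter domains of the 31 collagen genes marked in the replicated list, in bp from the coding start nearest the summit of the strongest peak (dashed line, positive into the gene), coloured by class with a black tick at that summit. Most bars cross the start, and those of Col1a1, Col24a1, Col4a6, Col14a1, Col9a2, Col8a2 and Col9a3 lie to one side of it.

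Collagen domains were weak as well as narrow, and they often missed the annotated start. The strongest peak of each collagen domain ranked at a median percentile of 40.9 by signal value among replicated peaks, with a highest value of 63.8 at Col19a1. Over all marked genes the median was 75.3, which no collagen gene exceeded. In pool C the medians were 53.3 for collagen genes and 79.9 for all marked genes, and in pool D 34.7 and 73.4. In pool C 2 collagen genes, Col4a1 and Col4a2, exceeded the median of all marked genes, and in pool D 0 did. The domain held no coding start of its gene at 7 of the 31 marked collagen genes, where 3.33% of all marked genes lacked one, and held one at the other 24 (77.4%, and 96.7% of all marked genes). In pool C this applied to 6 of 32 and in pool D to 6 of 26. The summit lay downstream of the nearest start at 23 of 31 collagen genes (74.2%) and at 78.4% of all marked genes, with median offsets of 158 and 156 bp. No collagen domain in the replicated list held a start site of another protein-coding gene other than the collagen partners Col4a1 with Col4a2 and Col4a3 with Col4a4.

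**Figure D4:**
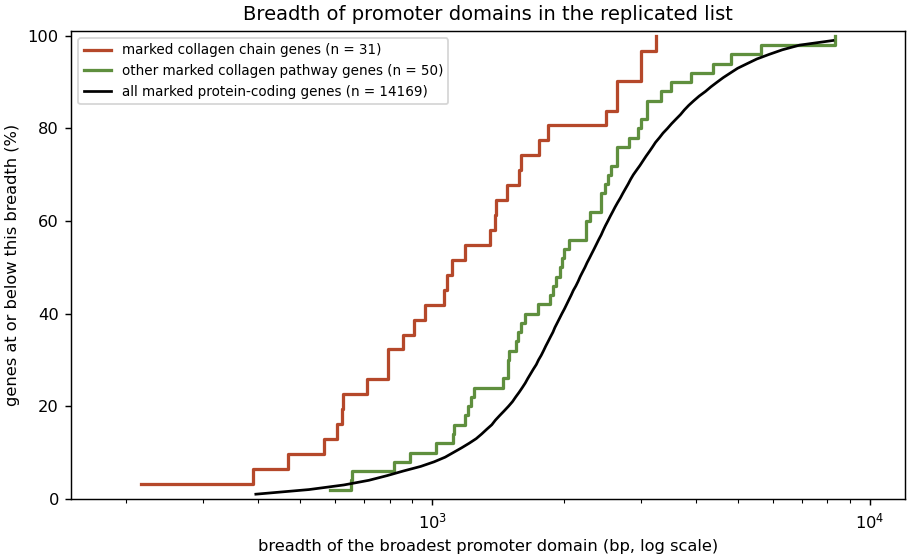
Cumulative share of genes (%, vertical axis) by breadth of the broadest promoter domain in the replicated list (bp, logarithmic horizontal axis), for 31 marked collagen chain genes, 50 other marked collagen pathway genes and all 14169 marked genes. The collagen curve lies to the left of the others, with medians of 1111, 1970 and 2234 bp.

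CpG content, which the choice of members did not use, separated marked from unmarked collagen genes in part. It was taken as the ratio of observed to expected CpG within 500 bp of the first coding start. The median ratio was 0.499 at the 31 marked collagen genes and 0.262 at the 13 unmarked ones, and over all genes 0.716 and 0.173. With a ratio of 0.5 or more, 15 of 15 collagen genes were marked, where 96.5% of all such genes were. These include Col8a2, whose ratio was taken at its first coding start, at 126286793 on chromosome 4. Its only domain lay by its second, at 126300530, and the first had no peak within 1 kb. Between 0.25 and 0.5, 15 of 22 collagen genes were marked (68.2%, and 52.0% of all genes). In that range all 6 fibrillar and all 5 basement membrane genes were marked, and 4 of 11 other collagens. Of these, the fibrillar genes Col5a3 and Col24a1 and the basement membrane gene Col4a6 lost their calls at a −log10 q of 5 or more. The 4 other collagens kept theirs. Col4a3 and Col4a4, both in this range, share 1 domain. Below 0.25, 1 of 7 collagen genes was marked (14.3%, and 12.2% of all genes), and that gene was Col1a2. Its ratio too was taken at its first coding start, at 4504814 on chromosome 6, while its domain held its second, at 4505493. At ratios of 0.25 or more collagen domains were narrower in the median than those of all marked genes. The medians were 1484 bp for collagens and 2324 bp for all genes at a ratio of 0.5 or more, and 793 and 1690 bp between 0.25 and 0.5. In these ranges 5 of 15 and 3 of 15 marked collagen genes exceeded the median of all marked genes. Below 0.25 the only value was that of Col1a2, 1081 bp, beside a median of 1808 bp for all marked genes.

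**Figure D5:**
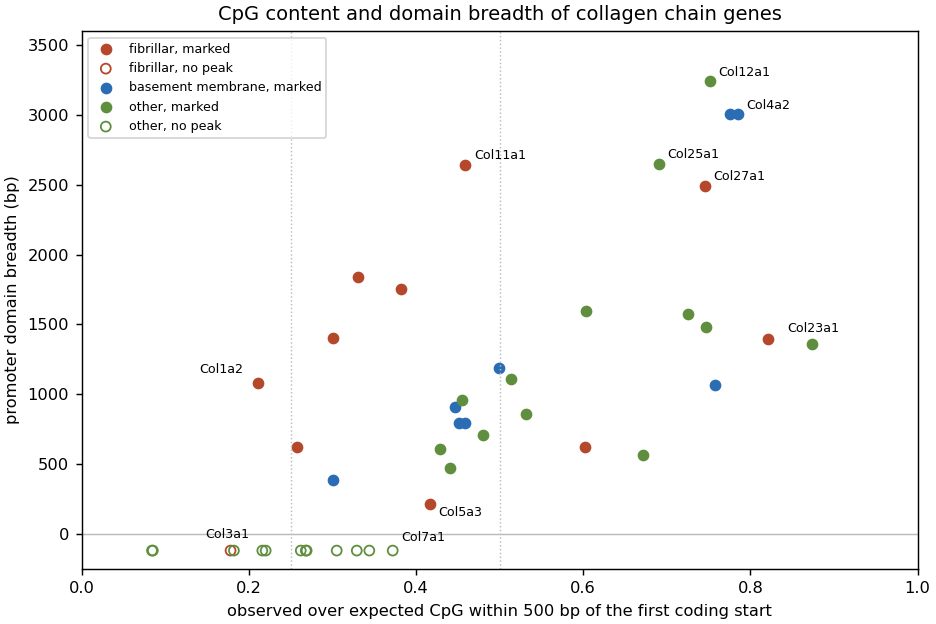
Promoter domain breadth in the replicated list (bp, vertical axis) against the ratio of observed to expected CpG at the first coding start for the 44 collagen genes, coloured by class; open circles below the zero line are genes with no peak, and dotted lines mark the ratios 0.25 and 0.5. Open circles stop at a ratio of 0.372 (Col7a1), and filled circles begin at 0.211 (Col1a2). Col8a2 and Col1a2 are each placed by the ratio at the first coding start, although the domain lies by the second.

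More collagen genes were marked in pool C than in pool D, and the shared domains were broader in pool C. Of the 44 genes 26 (59.1%) had a promoter peak in both single-pool lists, where 63.6% of all genes did. Another 6 (13.6%) had one in pool C alone, where 2.62% of all genes did, and 0 had one in pool D alone, where 0.0183% of all genes did. The 6 genes were Col26a1, Col2a1, Col4a6, Col6a1, Col9a1 and Col9a3. At Col26a1 pool D did have a peak inside the stretch of the pool C domain, but 1201 bp from a coding start and so outside the window. Of the 26 genes marked in both pools 25 had the broader domain in pool C (96.2%, and 96.8% of all genes). The median ratio of pool C to pool D breadth was 1.259 for collagens and 1.175 for all genes. The ratio was 1.5 or more at 9 of the 26 (34.6%), where 12.7% of all genes reached it. These were Col12a1, Col13a1, Col14a1, Col1a1, Col24a1, Col4a3, Col4a4, Col4a5 and Col9a2, among which Col4a3 and Col4a4 share a domain. With peaks left unjoined 9 of 26 again reached it, with Col27a1 in place of Col4a5, and 14.2% of all genes did. The pool C list also held more peaks in all, 34193 against 24690, and the part of depth in these differences was not tested.

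Peaks also lay inside collagen genes away from their coding starts. The replicated list held 19 such peaks more than 1 kb from any coding start of their gene, in 14 collagen genes, 11 of which were also marked at the promoter. They were narrow, with a median of 550 bp and a maximum of 1123 bp at Col11a1, and 1 of them, in Col2a1, lay within 1 kb of the start of a noncoding transcript of the same gene. Col25a1 held 3, between 82649 and 220338 bp from its first coding start. In Col12a1 1 of them, of 475 bp, is also a component of the joined promoter domain. Col22a1, which lacked a promoter peak, held 1 of 1121 bp, 216898 bp from its first coding start. Pool C held 33 such peaks in 17 genes, 2 of them at the start of another gene (Phykpl inside Col23a1 and n-R5s213 inside Col4a3), and pool D 15 in 11 genes. These counts also include components of joined promoter domains, at Col12a1 and Col25a1 in pool C and at Col25a1 and Col27a1 in pool D.

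The other genes of the collagen pathway were marked more completely than the chain genes. Of 57 genes 50 were marked in the replicated list (87.7%, beside 64.8% of all genes), 51 in pool C and 49 in pool D, with a median of 1970 bp in the replicated list. All 18 genes of procollagen modification and folding were marked in each list. The prolyl hydroxylase subunit gene P4ha1 measured 4881 bp in pool C and 4381 bp in pool D (4631 ± 353.6 bp). P3h4 and Fkbp10, which encode endoplasmic reticulum factors of collagen hydroxylation and folding, shared a domain of 3102 bp. Of 13 genes of procollagen cleavage and crosslinking 11 were marked, the broadest being the propeptide protease genes Adamts2 (2648 bp) and Adamts3 (2517 bp). Loxl2, a crosslinking oxidase gene, and Pcolce, which encodes an enhancer of propeptide cleavage, were not. The oxidase gene Lox had 994 bp in pool C and no promoter peak in pool D.

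Collagen receptors and basement membrane partners were marked at 8 of 11 and 13 of 15 genes. Ddr1, a receptor tyrosine kinase that binds collagen, measured 8381 bp in pool C and 5581 bp in pool D (6981 ± 1979.9 bp). Adgrg1, an adhesion receptor for type III collagen, had 8161 bp in pool C and 2656 bp in pool D (5408.5 ± 3892.6 bp), while the gene of its ligand, Col3a1, was unmarked. The platelet receptor gene Gp6, the integrin gene Itga10 and the immune receptor gene Lair1 were unmarked in the replicated list. Lamc1, a laminin chain gene, had 4370 bp and Agrn, a heparan sulphate proteoglycan gene, 3902 bp. Lamb3 was unmarked in all lists, and Nid1, which links laminin to type IV collagen, had 382 bp in pool C alone.

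Marker genes of cell types that the tissue could hold were counted in the same lists. Of 13 fibroblast and meningeal markers 8 were marked in the replicated list (61.5%, near the 64.8% of all protein-coding genes), 8 in pool C and 6 in pool D, with median breadths of 1370, 1652.5 and 679 bp. Bgn, Lum, Ogn, Slc22a6 and Slc6a13 were unmarked in all of these lists. Of 11 mural cell markers 8 were marked (72.7%), 9 in pool C and 7 in pool D (1427, 1691 and 1396 bp). Of 12 endothelial markers 11 were marked (91.7%), 12 in pool C and 9 in pool D (3456, 4270.5 and 2451 bp). Markers of microglia were marked at 5 of 10 in the replicated list, 9 in pool C and 2 in pool D. Of the oligodendrocyte markers 10 of 10 were marked, with 10 in pool C and 9 in pool D. Astrocyte markers (10 of 10, median 5292 bp) and neuron markers (10 of 10) were marked in both pools, and choroid plexus and ependymal markers at 3 of 9 in each list (33.3%). The counts of fibroblast, mural, endothelial, microglial and oligodendrocyte markers were higher in pool C, as was that of collagen genes, and their part in the collagen result was not tested.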

How the data were processed

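H3K4me3 peaks were deposited by the authors as narrowPeak lists on build mm10. Per the per-library notes, 1 list derives from pool C, 1 from pool D and 2 from both pools, 1 of which holds replicated peaks, and the 2 libraries of a pool feed the same list. The authors deposited a display score, a signal value (enrichment on their caller's scale) and −log10 p (not used here) and −log10 q values for each peak. No source used here names the peak caller. Signal values were compared only within a list. The lists reach down to a −log10 q of 0.26 in the replicated list.

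From these, promoter peaks and domains were computed with Python 3.11.15 and pandas 2.3.3 against GENCODE M21 (54361 coding start sites), with at least 1 bp of overlap with a window of 1 kb, and peaks within 1 kb joined. The code was tested on simulated peaks. Sequences were read from GRCm38. The members and lists were chosen with earlier results of these data known. Every member is named. Full values by pool were given for marked fibrillar and basement membrane genes, for the 5 broadest others and for genes marked in 1 pool, and from each pathway list the 2 broadest and the first 3 unmarked genes. The alternatives were the other lists, a stricter q, other windows, start sites, joining gaps and ways of assigning domains. The replicate is the pool, so nothing can be said of single animals.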

Additional observations from a re-analysis of the deposited data

How the results depend on the processing

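The count of marked collagen genes ranged from 26 (pool D list alone, and under the stricter q, a −log10 q of 5 or more) to 33 (window of 2.5 kb), around 31. The share of collagen genes marked was below that of all genes in pool D (59.1% and 63.7%) and under the stricter q (59.1% and 63.8%). It was also below for replicated peaks found in both single-pool lists (61.4% and 63.7%), and above in the other settings. Fibrillar, basement membrane and other counts, and that of other pathway genes, stayed within 1.5 times of their values in all 10 alternatives run on them. Under the stricter q 7 of 11 fibrillar, 7 of 8 basement membrane and 12 of 25 other collagen genes were marked, where 63.8% of all genes were. The median collagen breadth moved beyond the SD of 306.5 bp between the pools only in the pool C list alone, to 1447.5 bp, and remained below that of all genes in all 13 alternatives, at 0.485 to 0.619 times. Under the stricter q the calls of Col24a1, Col2a1, Col4a6, Col5a3 and Col8a2 were lost. Col25a1 and Col8a2 were lost with the gene's 5′ end as the only start, and Col8a2 also in the 500 bp window. The 2.5 kb window added Col28a1 (362 bp) and Col3a1 (351 bp). With no joining, Col12a1 measured 1328 bp and Col27a1 1561 bp, as Col27a1 did under the stricter q. The class medians without joining and with shared domains counted once were chosen after seeing the data. With gaps of 3 kb closed, Col2a1 measured 3149 bp and Col4a5 and Col4a6 2321 bp. No paired analysis was possible because the pools are the only groups and each gave 1 list. Depth is unknown, so a missing weak peak does not show that the mark is absent.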
